A study of Mus musculus with 9 samples.

Results

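The genes described here are the erythropoietin receptor gene Epor and 9 genes that act with it or after it: Jak2, Stat5a, Stat5b, Pim1, Socs1, Socs2, Socs3, Cish and Kit. They were taken by name, as all probe sets whose only gene symbol in the platform annotation is one of these 10. That gave 12 probe sets for the 10 genes, 1 each except for Socs2 and Socs3 with 2 each, out of 28939 probe sets outside the control block and 19938 genes with a probe set of their own. The cells were erythroblasts from mouse fetal livers at stage E14.5, sorted for CD71 (the transferrin receptor), Ter119 (a red cell surface marker) and high forward scatter, which selects large cells. The embryos came from matings of Th3/+ parents, on a 129SV background that had been crossed to C57BL/6 over 9 generations. There were 3 Th3/Th3 samples, which carry the Th3 allele on both chromosomes, 3 Th3/+ samples with a single Th3 allele, and 3 wild type samples, with 1 array each. Th3 is a beta-thalassemia allele without the adult beta-globin genes, present in every cell of the embryo rather than deleted in erythroid cells alone. The labels do not say whether a sample was 1 embryo or a pool, so the p-values measure the spread between these samples.

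Erythropoietin is the cytokine that keeps erythroid precursors alive and dividing. Its receptor has no enzyme activity of its own and signals through the bound tyrosine kinase JAK2, which phosphorylates the receptor and the transcription factors STAT5A and STAT5B. STAT5 then moves to the nucleus and switches on survival genes such as Pim1 and Bcl2l1 together with Cish and the Socs genes, whose protein products bind the receptor or the kinase and shut the signal down. KIT, the receptor for stem cell factor, works beside the erythropoietin receptor in early progenitors and is lost from the surface as the cells mature.

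STAT5 binds DNA at the palindrome TTCNNNGAA. The windows from 250 bases before to 50 bases after the annotated transcript starts were read from RefSeq (GRCm38.p6) for the 9 members that the table holds, 13 windows in all. TTCNNNGAA occurred in 2 of them, those of Cish and Socs3, and in 8.30% of all 32851 windows of the same length, and 0.457% of all windows held it at least 2 times, as the Cish window did. The motif reads the same on both strands. In Cish the matches begin at positions 0 and 11 relative to the annotated start, and in Socs3 at position -154. The 4 windows below are shown because Cish and Socs3 hold the motif, and Pim1 and Jak2 are the members whose transcripts changed (for Pim1, the window of the more upstream of its annotated starts). Capitals mark TTCNNNGAA, and the windows of Pim1 and Jak2, all in lower case, do not contain these letters, which says nothing of whether STAT5 acts on these genes from elsewhere.
Cish, chr9:107296409-107296708, plus strand: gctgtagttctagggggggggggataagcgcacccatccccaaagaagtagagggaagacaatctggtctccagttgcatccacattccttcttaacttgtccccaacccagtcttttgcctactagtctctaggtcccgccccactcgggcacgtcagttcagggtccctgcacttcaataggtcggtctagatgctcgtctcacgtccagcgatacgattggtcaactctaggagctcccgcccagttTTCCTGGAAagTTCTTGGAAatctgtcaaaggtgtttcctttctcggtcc
Socs3, chr11:117969317-117969616, minus strand: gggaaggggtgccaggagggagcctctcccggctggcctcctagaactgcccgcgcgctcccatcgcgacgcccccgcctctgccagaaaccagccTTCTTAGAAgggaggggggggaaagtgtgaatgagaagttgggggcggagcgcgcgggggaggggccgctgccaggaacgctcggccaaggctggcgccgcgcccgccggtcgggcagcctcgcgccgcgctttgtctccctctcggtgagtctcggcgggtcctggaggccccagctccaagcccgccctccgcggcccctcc
Pim1, chr17:29490535-29490834, plus strand: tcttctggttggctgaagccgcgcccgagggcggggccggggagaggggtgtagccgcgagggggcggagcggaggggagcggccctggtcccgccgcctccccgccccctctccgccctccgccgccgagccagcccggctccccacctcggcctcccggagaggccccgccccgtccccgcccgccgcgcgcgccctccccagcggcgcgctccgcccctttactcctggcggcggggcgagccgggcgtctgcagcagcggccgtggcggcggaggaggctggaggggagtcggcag
Jak2, chr19:29251553-29251852, plus strand: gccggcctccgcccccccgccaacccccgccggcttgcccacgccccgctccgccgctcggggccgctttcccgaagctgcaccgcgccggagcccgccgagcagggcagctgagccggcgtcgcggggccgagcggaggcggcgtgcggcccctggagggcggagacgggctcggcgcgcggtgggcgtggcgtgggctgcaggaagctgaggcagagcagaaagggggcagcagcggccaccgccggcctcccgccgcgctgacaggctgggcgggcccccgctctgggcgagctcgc
The Epor window is shown for a match to AGATAA, a sequence of the kind that the erythroid factor GATA1 binds, searched on both strands and found in 1 of the 13 windows and in 11.2% of all windows. It lies on the other strand at position -54 and is in capitals. TGATAA, the other form searched, was in none of the 13 windows and in 9.05% of all windows, and neither form overlapped a TTCNNNGAA match in these genes.
Epor, chr9:21963527-21963826, minus strand: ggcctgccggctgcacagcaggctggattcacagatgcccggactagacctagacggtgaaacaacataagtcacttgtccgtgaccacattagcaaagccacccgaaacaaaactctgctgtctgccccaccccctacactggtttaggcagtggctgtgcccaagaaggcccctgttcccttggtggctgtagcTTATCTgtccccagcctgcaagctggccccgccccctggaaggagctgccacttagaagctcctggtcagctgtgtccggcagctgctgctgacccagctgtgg
By their chromosomes (5, 9, 10, 11, 16, 17 and 19), 0 of the 10 genes lie on chromosome 7 with the adult beta-globin genes that the Th3 allele lacks.

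The deposited values are log2 signals per probe set. Array medians lay between 4.97 and 5.05, and rank correlations between arrays of the same genotype between 0.986 and 0.994. The first principal component, with 47.4% of the variance, set the Th3/Th3 arrays apart from all others. The second, with 16.7%, set replicate 1 of Th3/Th3 and replicate 1 of Th3/+ apart, so results that depend on those arrays are given without them too. The cells had the erythroid identity of their label: all 12 erythroid marker genes with a probe set, among them Gata1, Klf1, Alas2 and Slc4a1, passed the filter on low signal, with mean log2 signals over the 9 arrays between 9.49 and 12.70. Of the mast cell genes listed, Cpa3, Cma1, Ms4a2, Fcer1a and Mcpt8 did not pass that filter, while Hdc lay above the threshold on 9 arrays and Tpsb2 on 6. The granulocyte genes of the same list passed it except Ltf, with Mpo, Elane, Prtn3, S100a8, S100a9 and Camp above the threshold on 9 arrays. All 8 hepatoblast and 7 megakaryocyte genes with a probe set passed too, with mean log2 signals up to 7.93 and 8.16. A probe set passed when it lay above the 40th percentile of its array on at least 3 of the 9 arrays, and all 12 probe sets of the 10 genes did.

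In Th3/Th3 cells Pim1 and Jak2 were more than 2-fold below wild type, and the 8 other genes did not pass the test. Pim1, the survival kinase downstream of STAT5, was down 2.49-fold against wild type, and Jak2, the kinase that starts the signal, 2.21-fold. Both were also lower in Th3/Th3 than in Th3/+. In Th3/+ cells 0 of the 10 genes passed the test against wild type (limma). At an unadjusted p under 0.05 there were 0 on the main probe sets, beside 3.64% of all probe sets. These tests are linear models over all 9 arrays and 17742 probe sets with Benjamini-Hochberg adjustment, called at an adjusted p under 0.05. The 2 genes called lower of 10 in Th3/Th3 against wild type stand against 12.3% of all probe sets called in either direction and 4.98% called lower. In Th3/Th3 against Th3/+ the 2 genes called lower stand against 7.27% called in either direction and 3.26% called lower. In Th3/+ against wild type 0.0282% of all probe sets were called. The median change of the 10 genes was -0.07 (log2) in Th3/Th3 against wild type, beside 0 over all probe sets tested, over genes that went both ways, from -1.32 (Pim1) to 0.34 (Cish). In bulk samples a smaller share of cells that express a gene and less RNA per cell cannot be told apart.

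**Figure D1:**
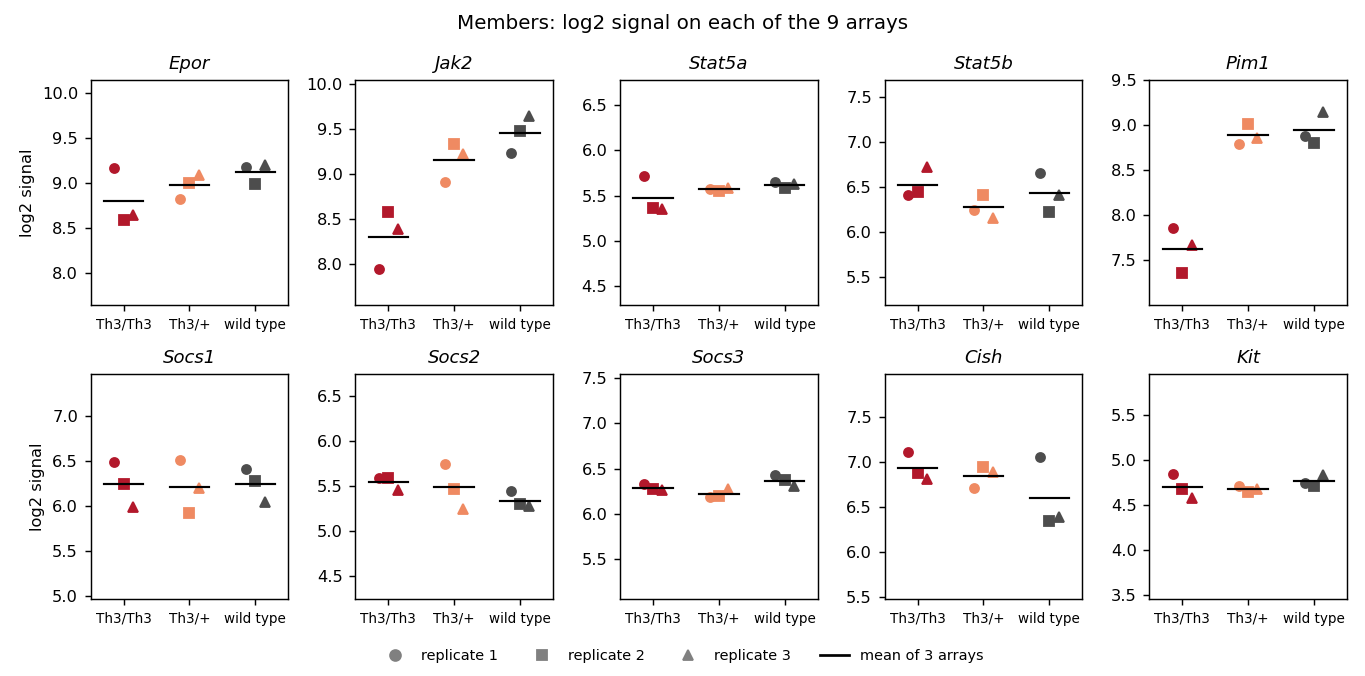
Log2 signal of the 10 genes on each array, with Th3/Th3 at the left, Th3/+ in the middle and wild type at the right. Symbols mark the replicate number and bars the mean of 3 arrays, and each panel spans its own range of signal. Pim1 and Jak2 are lower on all 3 Th3/Th3 arrays than on the other 6, and for Epor and Stat5a Th3/Th3 replicate 1 lies above the other Th3/Th3 arrays.

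Epor encodes the receptor itself. Its log2 signal was 9.16, 8.59 and 8.65 on the 3 Th3/Th3 arrays, 8.82, 9.00 and 9.08 on the Th3/+ arrays and 9.18, 8.99 and 9.20 on the wild type arrays. Replicates 2 and 3 of Th3/Th3 lay below every other array, while replicate 1 lay among the wild type values. The mean was 8.80 ± 0.32 in Th3/Th3, 8.97 ± 0.13 in Th3/+ and 9.12 ± 0.11 in wild type (SD, n = 3 each). The difference of -0.32 between Th3/Th3 and wild type (95% interval -0.70 to 0.06) did not pass the test with all arrays (limma, adjusted p = 0.272). Without Th3/Th3 replicate 1 it was -0.50 and passed (adjusted p = 0.0405), and without both arrays that stood apart it passed as well (adjusted p = 0.0308). Over all alternatives the adjusted p of Epor ran between 0.0308 and 0.544. Whether the receptor gene was called thus depended on 1 array. Th3/+ cells lay 0.15 below wild type in Epor (a difference of -0.15, 95% interval -0.53 to 0.23, adjusted p = 1).

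Kit, the stem cell factor receptor gene, was close to the filter threshold in every sample. Its log2 signal was 4.84, 4.68 and 4.58 in Th3/Th3, 4.71, 4.65 and 4.68 in Th3/+ and 4.74, 4.72 and 4.83 in wild type, between 0.06 and 0.29 above the 40th percentile of the same array. At such signals a change in Kit would be hard to resolve. The groups of Th3/Th3 and wild type overlapped, with a difference of -0.07 (95% interval -0.24 to 0.11, adjusted p = 0.674). All 3 Th3/+ arrays lay below all 3 wild type arrays, by a mean of 0.08 on the log2 scale (a difference of -0.08, adjusted p = 1), and 7.63% of all probe sets had no overlap between these genotypes. Under the stricter filter, at the 60th percentile, Kit was not among the probe sets tested.

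Jak2 had 7.95, 8.57 and 8.39 in Th3/Th3, 8.91, 9.33 and 9.22 in Th3/+ and 9.24, 9.47 and 9.64 in wild type. No Th3/Th3 array reached the lowest Th3/+ or wild type array, and Th3/+ overlapped with wild type. Of all probe sets, 27.5% had no overlap between Th3/Th3 and wild type and 22.8% between Th3/Th3 and Th3/+. Jak2 fell by 1.15 in Th3/Th3 against wild type (2.21-fold, SE 0.19, 95% interval -1.58 to -0.71, limma adjusted p = 0.00509). This call held with each array left out in turn, with changes between -1.28 and -0.97 and adjusted p between 0.00603 and 0.0241. Within replicate numbers 1, 2 and 3 the differences were -1.29, -0.90 and -1.25. Against Th3/+, Jak2 fell by 0.85 in Th3/Th3 (1.80-fold, SE 0.19, adjusted p = 0.0294), and this call was lost without wild type replicate 2, Th3/+ replicate 2 or 3, or Th3/Th3 replicate 1 or 3, with adjusted p up to 0.118. The order of Jak2 signal was thus lowest in Th3/Th3, then Th3/+, then wild type, where the last neighbours differed by -0.30 (95% interval -0.73 to 0.14, adjusted p = 1) and were not separated beyond their spread.

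The STAT5 genes showed no call with all arrays. Stat5a and Stat5b encode close relatives with overlapping functions, on chromosome 11. Stat5a had 5.72, 5.36 and 5.35 in Th3/Th3, 5.57, 5.55 and 5.59 in Th3/+ and 5.65, 5.58 and 5.63 in wild type. As for Epor, Th3/Th3 replicates 2 and 3 lay below all other arrays. Replicate 1 of Th3/Th3 was the highest of all arrays for Stat5a, while for Epor it lay among the wild type values. The difference from wild type was -0.14 (95% interval -0.38 to 0.09, adjusted p = 0.441) with all arrays and -0.27 (adjusted p = 0.0421) without Th3/Th3 replicate 1. Over all alternatives the adjusted p of Stat5a ran between 0.0421 and 0.737. Stat5b had 6.42, 6.45 and 6.72 in Th3/Th3, 6.24, 6.42 and 6.16 in Th3/+ and 6.66, 6.22 and 6.42 in wild type. These groups overlapped, and the Th3/Th3 difference from wild type was 0.10 (95% interval -0.22 to 0.41, adjusted p = 0.735).

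**Figure D2:**
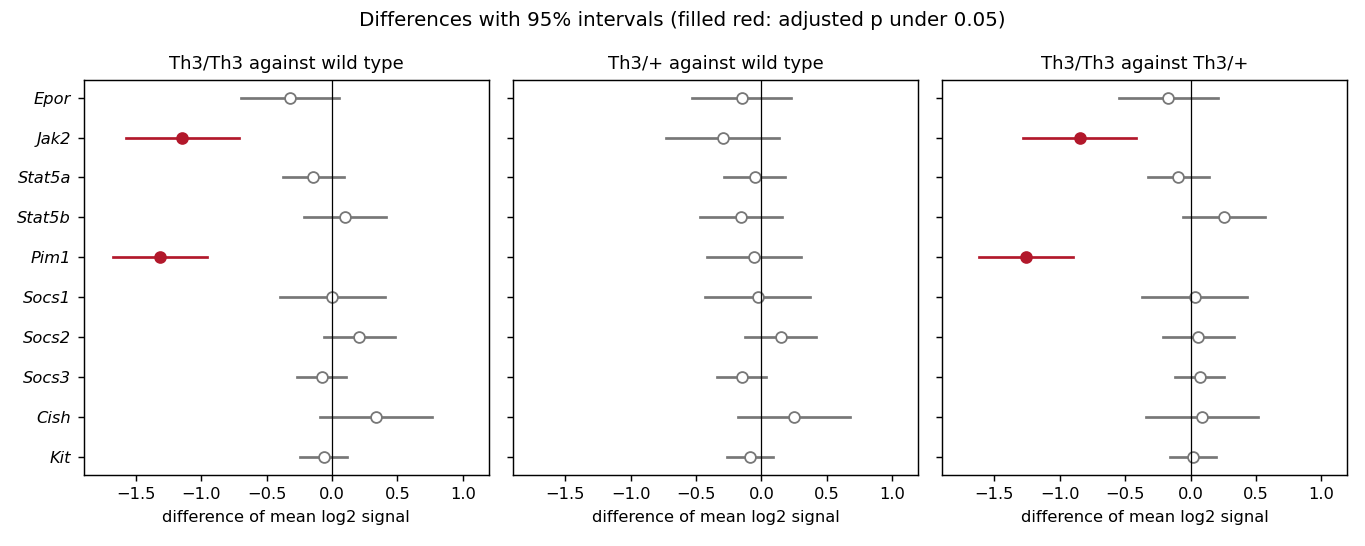
Differences of mean log2 signal with 95% intervals from the linear model, for Th3/Th3 against wild type (left), Th3/+ against wild type (middle) and Th3/Th3 against Th3/+ (right). Filled red points passed the test: Jak2 and Pim1 in the left and right panels, with none in the middle panel.

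Among the targets, Pim1 had 7.86, 7.36 and 7.66 in Th3/Th3, 8.79, 9.01 and 8.86 in Th3/+ and 8.88, 8.80 and 9.14 in wild type. The lowest array outside Th3/Th3 was still 0.93 above the same-numbered Th3/Th3 array, and the Th3/+ and wild type arrays overlapped. Pim1 fell by 1.32 in Th3/Th3 against wild type (2.49-fold, SE 0.16, 95% interval -1.68 to -0.96, limma adjusted p = 0.00116) and by 1.26 against Th3/+ (2.40-fold, SE 0.16, adjusted p = 0.00262). With each array left out in turn these changes lay between -1.43 and -1.18 and between -1.38 and -1.13, all called. The Th3/+ difference from wild type was -0.06 (95% interval -0.42 to 0.30, adjusted p = 1). Pim1 thus had its low level in Th3/Th3, while Th3/+ and wild type did not differ beyond their spread.

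Cish encodes CIS, a feedback inhibitor that binds the activated receptor, and its promoter window holds the paired STAT5 motif shown above. Its log2 signal was 7.12, 6.87 and 6.82 in Th3/Th3, 6.71, 6.94 and 6.89 in Th3/+ and 7.06, 6.35 and 6.39 in wild type. Replicates 2 and 3 of wild type lay below every other array, while wild type replicate 1 was among the highest. The difference between Th3/Th3 and wild type was 0.34 (95% interval -0.09 to 0.77, adjusted p = 0.312) with all arrays and 0.57 without wild type replicate 1, where it passed the test (adjusted p = 0.0391). Over all alternatives the adjusted p of Cish ran between 0.0391 and 0.637. Th3/+ lay 0.25 above wild type (95% interval -0.18 to 0.68, adjusted p = 1). The Th3/Th3 interval of Cish ends at -0.09 on its lower side, so it leaves out a fall of the size measured for Pim1.

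The SOCS genes encode the other feedback inhibitors, of which SOCS1 and SOCS3 block the JAK kinases and SOCS2 acts mainly in growth hormone signalling. Socs1 had 6.49, 6.25 and 6.00 in Th3/Th3, 6.51, 5.92 and 6.21 in Th3/+ and 6.41, 6.28 and 6.04 in wild type. All genotypes covered the same range, and the Th3/Th3 difference from wild type was 0.002 (95% interval -0.40 to 0.40, adjusted p = 0.997). Socs3 on its brighter probe set had 6.33, 6.27 and 6.26 in Th3/Th3, 6.18, 6.20 and 6.27 in Th3/+ and 6.43, 6.37 and 6.30 in wild type, a span of under 0.3 over all 9 arrays. Its Th3/Th3 difference from wild type was -0.08 (95% interval -0.27 to 0.11, adjusted p = 0.620), and the second probe set gave -0.12 (adjusted p = 0.555). All 3 Th3/+ arrays lay below all 3 wild type arrays on the brighter probe set, as 7.63% of all probe sets did not overlap. That difference was -0.15 (95% interval -0.34 to 0.04) and not called. The second probe set gave -0.14 for Th3/+, with overlap.

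Socs2 on its brighter probe set had 5.59, 5.59 and 5.46 in Th3/Th3, 5.75, 5.47 and 5.25 in Th3/+ and 5.44, 5.30 and 5.28 in wild type. All 3 Th3/Th3 arrays lay above all 3 wild type arrays, as 27.5% of all probe sets did not overlap between these genotypes, but the difference of 0.21 (95% interval -0.07 to 0.48) did not pass the test (adjusted p = 0.335). The second probe set, nearer the threshold, had 4.42, 5.04 and 5.29 in Th3/Th3, 5.00, 5.21 and 4.79 in Th3/+ and 4.27, 4.44 and 4.78 in wild type. It pointed the same way, with a Th3/Th3 difference from wild type of 0.42 (adjusted p = 0.268) and a Th3/+ difference of 0.51 (unadjusted p = 0.0448, adjusted p = 1). The 95% interval of the Th3/Th3 change from wild type ran from -0.40 to 0.40 for Socs1 and from -0.27 to 0.11 for Socs3 (log2).

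**Figure D3:**
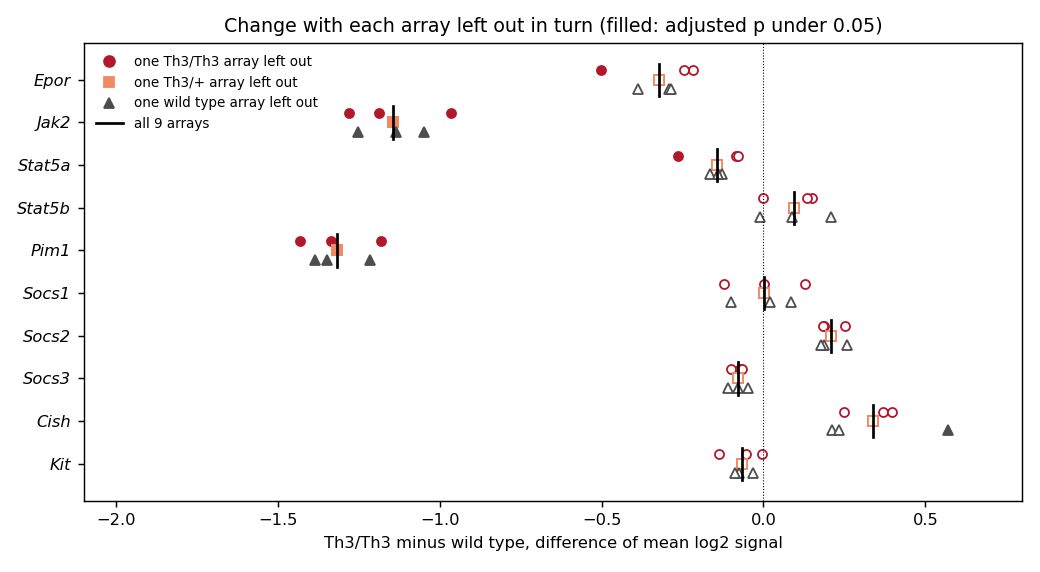
Th3/Th3 minus wild type for the 10 genes, as a black bar with all 9 arrays and as symbols with 1 array left out in turn (circles Th3/Th3, squares Th3/+, triangles wild type). Filled symbols passed the test: Pim1 and Jak2 did so in all cases, Epor and Stat5a without Th3/Th3 replicate 1, and Cish without wild type replicate 1.

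The 5 genes whose profile over the 9 arrays was most like that of Pim1 were Sptb, Bcl2l1, Rnf123, Fn3k and Tpcn1. The measure was the root-mean-square difference of the values after each gene was centred on its own mean, and it lay between 0.08 and 0.10 on the log2 scale. Sptb encodes beta-spectrin of the red cell membrane skeleton, Bcl2l1 the survival protein BCL-XL, Rnf123 a ubiquitin ligase subunit, Fn3k a kinase that removes sugars from proteins, and Tpcn1 an endosomal ion channel.

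Other genes of the pathway were taken from 4 lists with 97 symbols, of which 86 had a probe set of their own and 78 passed the filter. In Th3/Th3 against wild type 6 of the 78 rose and 9 fell (limma, adjusted p under 0.05), 19.2% called against 13.1% of all 12898 genes tested with 1 probe set each, and their median change was -0.05 beside 0 for all probe sets. In Th3/+ against wild type 0 of 78 passed (limma, against 0.0155% of all genes), and 4 had an unadjusted p under 0.05, as did 3.64% of all probe sets. In Th3/Th3 against Th3/+ 3 rose and 5 fell, 10.3% against 8.18% of all genes. Leaving out 1 array brought the first of these counts as low as 6 (without wild type replicate 1 or 2), so most single calls in these lists depended on the arrays used. Pik3r1, Bcl2l1, Tfrc, Mcl1 and Lmo2 kept their call in Th3/Th3 against wild type under all 18 alternatives.

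**Figure D4:**
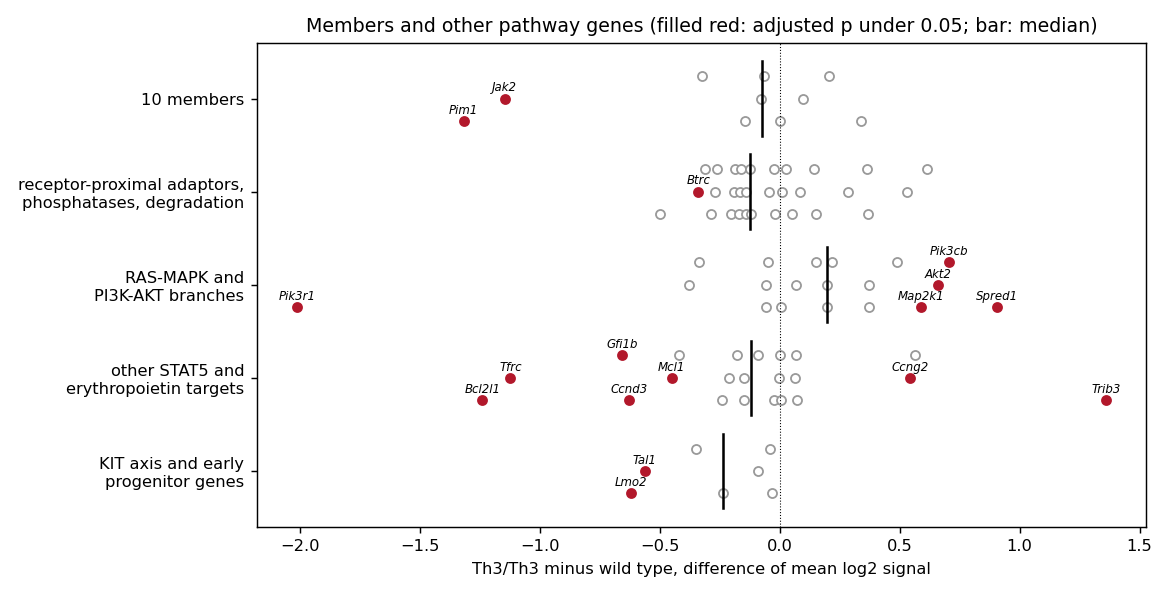
Th3/Th3 minus wild type for the 10 genes (top row) and for the genes of 4 pathway lists that passed the filter, with 1 point per gene, the list median as a bar, and called genes named in filled red. Pik3r1 at -2.01 and Trib3 at 1.36 are the outermost points.

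The receptor-proximal list (adaptors, phosphatases, degradation factors and other JAK, STAT and SOCS genes) had 30 genes that passed the filter. Of these, 0 rose and 1 fell in Th3/Th3 against wild type (median -0.12), 3.33% called beside 13.1% of all genes. The gene that fell was Btrc, a ubiquitin ligase subunit that takes part in turnover of the erythropoietin receptor, by 0.34 (adjusted p = 0.0498), and 12 of 18 alternatives did not call it. Rnf41, a ubiquitin ligase of cytokine receptors, was next by p-value, at 0.61 higher (adjusted p = 0.0659). The negative regulators Sh2b3 (LNK), Ptpn6 (SHP-1) and Inpp5d (SHIP) differed by 0.15, -0.02 and -0.02, with adjusted p = 0.552, 0.916 and 0.902.

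The RAS-MAPK and PI3K-AKT branches held the largest change of the pathway genes. Pik3r1, which encodes the regulatory subunit p85 alpha through which PI3-kinase docks on activated receptors, had 7.71, 8.03 and 7.68 in Th3/Th3, 9.64, 9.66 and 9.36 in Th3/+ and 9.53, 9.87 and 10.06 in wild type. Its Th3/Th3 arrays lay more than 1 log2 unit below all others. Pik3r1 fell by 2.01 against wild type (4.03-fold, SE 0.17, limma adjusted p = 0.000208) and by 1.75 against Th3/+ (adjusted p = 0.000754). The catalytic subunit gene Pik3cb rose by 0.70 (adjusted p = 0.0312), the kinase genes Akt2 and Map2k1 by 0.66 and 0.59 (adjusted p = 0.0344 and 0.0201). Spred1, a RAS pathway inhibitor, had 4.61, 5.32 and 5.58 in Th3/Th3, 4.17, 4.03 and 4.55 in Th3/+ and 4.36, 4.37 and 4.06 in wild type. It passed the filter on 3 arrays, none of them wild type, so its size of change is not resolved, and its call (adjusted p = 0.0336) was absent without the filter and held in 10 of 17 alternatives. Counting Spred1, 4 of 19 genes were called higher and 1 lower in Th3/Th3 against wild type (median 0.20), 26.3% beside 13.1% of all genes. In Th3/Th3 against Th3/+ 2 rose and 2 fell, 21.1% beside 8.18% of all genes. Foxo3, the forkhead factor that AKT keeps out of the nucleus, was among the falls at -0.47 (limma, adjusted p = 0.0465). Pik3cb, Akt2, Map2k1, Spred1 and Foxo3 each lost their call under some alternatives, Map2k1 under 3 and Foxo3 under 12 of 18.

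Of 22 other STAT5 and erythropoietin targets, 2 rose and 5 fell in Th3/Th3 against wild type (median -0.12), 31.8% called beside 13.1% of all genes. Bcl2l1 had 11.21, 10.52 and 10.96 in Th3/Th3, 12.15, 12.10 and 12.04 in Th3/+ and 12.08, 12.02 and 12.30 in wild type, with no overlap between Th3/Th3 and the rest. The anti-apoptotic gene Mcl1 had 10.46, 10.62 and 10.43 in Th3/Th3, 10.76, 10.74 and 10.76 in Th3/+ and 10.89, 10.97 and 10.99 in wild type, so no genotype overlapped with another. Of all probe sets, 27.5% had no overlap between Th3/Th3 and wild type, 22.8% between Th3/Th3 and Th3/+ and 7.63% between Th3/+ and wild type. The fall of Mcl1 against wild type was called in Th3/Th3 (-0.45, adjusted p = 0.00791) and not in Th3/+ (-0.20, unadjusted p = 0.0387, adjusted p = 1). Tfrc encodes CD71, on which the cells were sorted, and had 10.93, 11.11 and 10.95 in Th3/Th3, 12.00, 12.09 and 11.98 in Th3/+ and 11.92, 12.23 and 12.20 in wild type.

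The cell cycle gene Ccnd3 (cyclin D3) fell by 0.63 (adjusted p = 0.0405) and Gfi1b, an erythroid repressor, by 0.65 (adjusted p = 0.0473), with calls in 8 and 7 of 18 alternatives. Trib3, a pseudokinase gene also known as a target of stress signalling, had 7.77, 6.95 and 6.13 in Th3/Th3, 5.86, 5.85 and 5.79 in Th3/+ and 5.50, 5.84 and 5.43 in wild type. Its Th3/Th3 arrays spread over more than 1.5 log2 units, and the rise of 1.36 (SE 0.33) had an adjusted p = 0.0265 (limma). Without Th3/Th3 replicate 1 the rise of Trib3 was 0.95 and still called. The call held in 13 of 18 alternatives and was lost without any 1 of the wild type arrays. Ccng2, a cyclin gene that FOXO3 activates, rose by 0.54 (limma, adjusted p = 0.0198), with a call in 14 of 18 alternatives. The kinase genes Pim2 and Pim3, relatives of Pim1, differed by -0.24 and -0.02 (adjusted p = 0.181 and 0.901). Erfe, the erythropoietin-induced hormone gene that lowers hepcidin, had the same value of 6.49 on all 3 Th3/Th3 arrays (SD 0). It had 6.70, 6.71 and 6.52 in Th3/+ and 6.45, 6.41 and 6.40 in wild type, so no genotype overlapped with another. The shares of all probe sets without overlap are those given for Mcl1. Its difference from wild type was 0.07 in Th3/Th3 (limma, adjusted p = 0.708) and 0.22 in Th3/+ (unadjusted p = 0.0353), and neither was called.

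**Figure D5:**
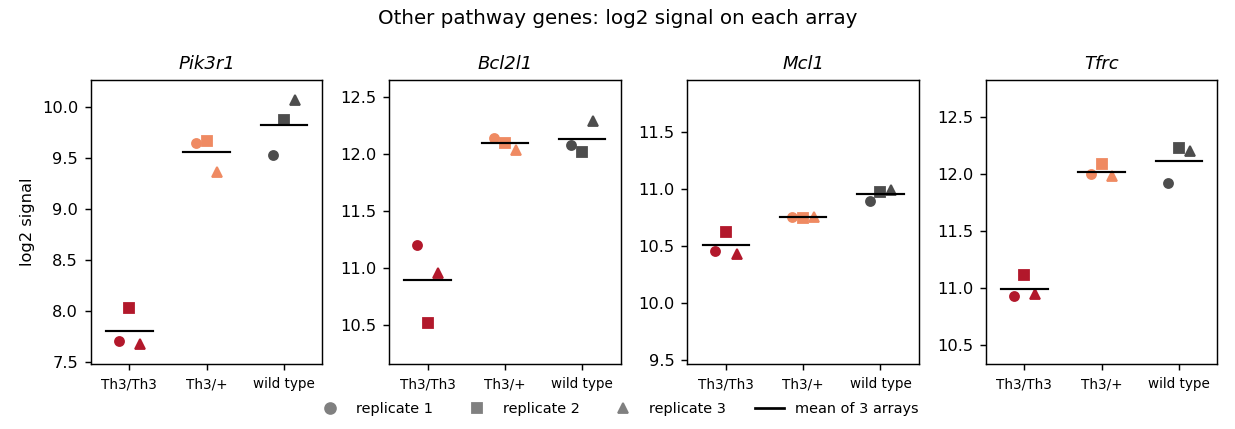
Log2 signal of Pik3r1, Bcl2l1, Mcl1 and Tfrc on each array, with Th3/Th3 at the left, Th3/+ in the middle and wild type at the right, symbols for replicate numbers and bars for means. The 3 Th3/Th3 arrays lie below the other 6 in each panel.

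Of the 7 genes of the KIT axis and early progenitors that passed the filter, 2 fell in Th3/Th3 against wild type (median -0.24). Over all genes 13.1% were called in either direction. The falls were those of Lmo2 and Tal1, partners in the GATA1 complex, by 0.62 and 0.56 (limma, adjusted p = 0.00651 and 0.0191). The call of Tal1 held in 13 of 18 alternatives. Gata2 and Myb, factors of early progenitors, had mean signals of 4.70 and 5.08 in Th3/Th3 and 4.79 and 5.12 in wild type, and did not pass the test (adjusted p = 0.610 and 0.802). The KIT ligand gene Kitl and the progenitor marker gene Cd34 did not pass the filter.

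Erythroid genes in general were lower in the same arrays. Of 12 erythroid identity genes, 10 fell in Th3/Th3 against wild type (median -0.73), against 13.1% of all genes called in either direction, with Tfrc counted here and among the targets. Their summed linear signal was 25499 to 28129 in Th3/Th3, 41551 to 46060 in Th3/+ and 43698 to 52232 in wild type. Of 10 macrophage genes that passed the filter 2 were called lower, beside the same 13.1% of all genes, and the summed signal over 13 genes was 391 to 422 in Th3/Th3, 450.0 to 671 in Th3/+ and 455 to 600 in wild type, while Csf1r, Mrc1 and Cd163 did not pass the filter. Megakaryocyte marker signal summed to 661 to 786 in Th3/Th3, 936 to 1127 in Th3/+ and 862 to 1189 in wild type over 7 genes, with 1 called lower beside that 13.1%. The part of these differences in the changes of Pim1 and Jak2 was not tested. The filter was passed by 8 granulocyte and mast cell, 8 hepatoblast, 3 lymphoid, and 5 endothelial and stromal markers. Of these, 0 were called in Th3/Th3 against wild type (limma). At an unadjusted p under 0.05 there were also 0, beside 25.7% of all probe sets. Each list is small beside a share of 13.1% of all genes called, so 0 calls in any of them says little.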

How the data were processed

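Expression was measured on 9 arrays, 3 per genotype, from 35 ng of RNA per sample. The deposited log2 values per probe set were used as the authors scaled them. Per the submitters' processing notes MAS5 was used, with no version or role given. The sources used here do not name the background correction, probe set summary or normalization. Of 35556 probe sets, 6617 with identifiers below the first annotated one were left out as controls. Genes were named through the platform annotation (21789 probe sets with 1 symbol, 1621 with several and 5529 not listed). Tests covered the 17742 probe sets whose signal passed the 40th percentile of the array on 3 or more arrays.

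A linear model of the 9 arrays with a mean for each genotype was tested two-sided (R 4.3.3, limma 3.58.1, lmFit and eBayes with trend), with Benjamini-Hochberg adjustment over all 17742. Changes are differences of mean log2 values and folds their antilogs. The smallest two-sided p of an exact permutation test of 3 against 3 arrays is 0.1, so calls rest on the moderated variance. A gene with several probe sets is given by the one with the highest mean. Arrays have no read depth, and their number limits the precision. On simulated data for Th3/Th3 against wild type over 17742 probe sets, 46.0% of changes of 1.5-fold, 78.0% of 2-fold and 96.0% of 3-fold were recovered, with 4 false among 162 calls. The simulation drew independent noise for each probe set and array, and changed far fewer probe sets than the 2181 called in the data. Its shares therefore do not give the power or error rate of the real comparison. Members, lists and tests were chosen with earlier results of these data known. The rule covered all 10 members, called genes of each pathway list, and the 5 genes most like the member with the smallest adjusted p. It also covered the genes with the smallest adjusted p in each list, called or not, such as Rnf41 and Shc1. Not every gene so covered is described here. The pathway genes Sh2b3, Ptpn6, Inpp5d, Pim2, Pim3, Erfe, Gata2, Myb, Jak1, Stat3, Socs4 to Socs7, Tfr2, Id1 and Myc were named after their values were seen. Alternatives changed the filter, scaling, variance model, arrays, probe set rule and replicate block.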

Additional observations from a re-analysis of the deposited data

How the results depend on the processing

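Each change of a member was recomputed under 18 alternatives (17 for Kit, which the stricter filter left out). The falls of Pim1 and Jak2 in Th3/Th3 against wild type were called under all of them, with changes of -1.43 to -1.18 and -1.28 to -0.97, and so was that of Pim1 against Th3/+ (-1.43 to -1.13). With only the 2 genotypes compared in the fit, Jak2 in Th3/Th3 against Th3/+ was not called (adjusted p = 0.0764), which left 1 member there, and the pathway lists had 9 genes called in Th3/Th3 against wild type and 5 in Th3/Th3 against Th3/+. That fit has fewer arrays to estimate the spread. Without replicate 1 of both Th3/+ and Th3/Th3, 4 members were called against wild type (Epor and Stat5a in addition) and 5 pathway genes in Th3/Th3 against Th3/+. With 1 array left out, the members called were 2 to 4 in Th3/Th3 against wild type and 1 to 2 in Th3/Th3 against Th3/+, and the pathway genes called were 6 to 14 and 5 to 9.

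Small uncalled changes turned sign. Quantile normalization gave Socs1 -0.0474 in Th3/Th3 against wild type and -0.0114 against Th3/+, and the mean of both probe sets gave Socs2 -0.0127 in Th3/Th3 against Th3/+. Without replicate 1 of Th3/+ and Th3/Th3, Socs1 was -0.12 against wild type, and Cish and Kit were -0.0685 and -0.0381 in Th3/Th3 against Th3/+. With 1 array left out, Stat5b ranged between -0.00949 and 0.21 and Socs1 between -0.12 and 0.13 in Th3/Th3 against wild type. In Th3/+ against wild type Pim1 ranged between -0.13 and 0.045 and Socs1 between -0.18 and 0.12. In Th3/Th3 against Th3/+ Socs1 ranged between -0.11 and 0.18, Socs2 between -0.0605 and 0.19, Cish between -0.000917 and 0.15, and Kit between -0.0531 and 0.0803. The cause of these changes was not tested.

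Samples of equal replicate number deviated together in part (correlations of deviations -0.125 to 0.355). The best match was to the own number in 13 of 18 comparisons, more often than an even pick among 3 arrays would give. On the second principal component, replicate 1 scored highest and replicate 3 lowest in each genotype. The main fit did not take the numbers as pairs, so an effect shared by a number stays in its spread. With the replicate block, members called stayed at 2 in both comparisons of Th3/Th3 and at 0 for Th3/+ against wild type, and pathway genes were 17 in Th3/Th3 against wild type and 12 in Th3/Th3 against Th3/+, beside 15 and 8 without it. Jak2 in Th3/Th3 against Th3/+ then had an adjusted p of 0.00775 (limma), beside 0.0294 without the block, and Pim1 0.00553 beside 0.00262. Over all probe sets, calls in Th3/Th3 against wild type were 1444 without wild type replicate 2. They were 2470 with the replicate block, against 2181 with all arrays and no block. In Th3/+ against wild type they ranged between 0 and 12 over the alternatives against 5. In Th3/Th3 against Th3/+ they were 585 without Th3/+ replicate 2 and 798 with only these genotypes in the fit, against 1290.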

Other observations

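Other genes of the JAK, STAT and SOCS families showed no call in Th3/Th3 against wild type. Jak1, a kinase of other cytokine receptors, averaged 9.27 ± 0.27 (log2, SD, n = 3) in Th3/Th3 and 9.53 ± 0.18 in wild type (limma, adjusted p = 0.351), so the fall of Jak2 had no called counterpart in Jak1, and the difference between these genes was not tested. Stat3 averaged 7.31 ± 0.33 in Th3/Th3 and 6.94 ± 0.06 in wild type, without overlap (adjusted p = 0.183). Socs4 lay lower in Th3/Th3 without overlap (a difference of -0.31, adjusted p = 0.335), and Socs5, Socs6 and Socs7 differed by 0.14, 0.01 and 0.09 (adjusted p = 0.437, 0.959 and 0.843). Between Th3/Th3 and wild type 27.5% of all probe sets had no overlap, as Stat3 and Socs4 had none.

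The adaptor gene Shc1 averaged 8.63 ± 0.12 in Th3/Th3, 8.06 in Th3/+ and 8.10 ± 0.31 in wild type (a difference of 0.53 between Th3/Th3 and wild type, adjusted p = 0.0754). Tfr2, a transferrin receptor that associates with the erythropoietin receptor, differed by -0.27 (adjusted p = 0.181). Id1, a STAT5 target, lay lower on all 3 Th3/Th3 arrays than on any wild type array (-0.21, limma, adjusted p = 0.124). Such a lack of overlap held for 27.5% of all probe sets. The proto-oncogene Myc differed by 0.56 with a wide 95% interval (-0.16 to 1.29, limma, adjusted p = 0.321). It had 6.48, 7.18 and 6.48 in Th3/Th3 and 6.53, 6.59 and 5.32 in wild type. Wild type replicate 3 thus lay well below the other arrays, and the size of the difference depended on it.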
